A study of Mus musculus with 4 samples.

Results

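Transcripts of 9 regulators of G protein signalling (RGS) genes, Rgs1, Rgs2, Rgs3, Rgs10, Rgs12, Rgs13, Rgs14, Rgs18 and Rgs19, were followed in B1a and follicular B2 cells of wild-type mice. The genes were taken by name from a total of 20599 gene symbols, and each was represented by a single entry. Rgs14 and Rgs19 were the most abundant members in both cell types. Rgs12 and Rgs13 had 0 reads in both B1a libraries and were detected in both B2 libraries. Rgs14 was higher in both B1a libraries than in either B2 library. None of the 9 genes passed the test at an adjusted p of 0.05, against 5.74% of all tested genes. The B1a replicates differed widely from each other for several of the 9 genes.

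RGS proteins bind the GTP-loaded alpha subunit of a heterotrimeric G protein and speed up GTP hydrolysis, which shortens the signal that a G protein-coupled receptor sends into the cell. In B cells many receptors of this type are chemokine and lipid receptors, which steer migration into follicles, germinal centres and body cavities. The family is divided by structure. Rgs1, Rgs2, Rgs3, Rgs13 and Rgs18 belong to the R4 group, mostly small proteins with little beyond the RGS domain. Rgs10, Rgs12 and Rgs14 form the R12 group, and Rgs19 belongs to the RZ group.

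RNA-Seq libraries were available from peritoneal B1a cells (n = 2) and splenic follicular B2 cells (n = 2) of wild-type C57BL/6 mice. By the methods the donors were separate mice, littermate controls of animals lacking Dnmt3a in B cells, and the controls are elsewhere described as C57BL/6J. The gates included CD23- IgM+ CD5+ for B1a cells and IgD high IgM low CD21+ for follicular B2 cells. The labels give an age of 4 weeks for all 4 libraries, whereas the methods give an older age for the follicular B2 donors and a cell number for B1a sorts that could be lower than for B2 sorts. Tissue, cell type, cell number and, by the methods, age cannot be told apart in the comparison. The libraries held 11578785 and 11558489 counts (B1a replicates 1 and 2) and 11032732 and 18588623 counts (B2 replicates 1 and 2).

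The sorted identities could be checked against markers. The summed level of 5 B1a marker genes was 1181 and 893 CPM (reads scaled to equal effective library size) in B1a cells against 75.7 and 75.3 CPM in B2 cells, and the summed level of 4 follicular markers was 1161 and 929 CPM against 3266 and 3469 CPM. Macrophage markers summed to 224 and 253 CPM in B1a cells and to 63.6 and 73.7 CPM in B2 cells. Red blood cell markers summed to 78.8 and 504 CPM in B1a cells and to 36.1 and 80.8 CPM in B2 cells, with B1a replicate 2 highest, and their part in the results was not tested. The B1a libraries were the less even pair. Of 581 genes with 40 to 60 counts in B1a replicate 2, 175 (30.1%) had 0 counts in B1a replicate 1, while in the opposite direction it was 40 of 422 genes (9.48%). The corresponding values for the B2 replicates were 0.58% and 1.03%. A count of 3 was taken as the floor of detection, equal to between 0.157 and 0.27 CPM, and this covers counting error only.

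The genes lie at 6 places in the genome, and 4 of them form a cluster. On chromosome 1 of GRCm38, Rgs2 (143999338 to 144004149), Rgs13 (144137386 to 144177372), Rgs1 (144244669 to 144249104) and Rgs18 (144752683 to 144775427) occupy a stretch of 776.1 kb on the minus strand. The stretch holds 5 protein-coding genes, and the remaining gene, Rgs21, another R4 member, had 0 counts in all 4 libraries. Rgs12 lies on chromosome 5 (34948929 to 35039642, plus strand), Rgs14 on chromosome 13 (55369732 to 55384687, plus strand), Rgs19 on chromosome 2 (181688419 to 181694537, minus strand), Rgs3 on chromosome 4 (62559835 to 62703019, plus strand) and Rgs10 on chromosome 7 (128373621 to 128419506, minus strand).

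Because the study concerns CpG methylation, the 250 bases before the transcription start are shown for 3 genes with differing CpG content. RefSeq starts on GRCm38.p6 were found for 6 of the 9 genes, with 10 starts in total. Rgs2 and Rgs13 are neighbours in the cluster, and Rgs12 had 0 reads in both B1a libraries. The windows are Rgs2 (chr1:144004150-144004399, minus strand), Rgs13 (chr1:144177373-144177622, minus strand) and Rgs12 (chr5:34949198-34949447, plus strand, before the more upstream of 2 RefSeq transcript starts, inside the annotated span of the gene). They are printed 5′ to 3′ on the strand of the gene, and capitals mark CG pairs, which read the same on both strands.
Rgs2: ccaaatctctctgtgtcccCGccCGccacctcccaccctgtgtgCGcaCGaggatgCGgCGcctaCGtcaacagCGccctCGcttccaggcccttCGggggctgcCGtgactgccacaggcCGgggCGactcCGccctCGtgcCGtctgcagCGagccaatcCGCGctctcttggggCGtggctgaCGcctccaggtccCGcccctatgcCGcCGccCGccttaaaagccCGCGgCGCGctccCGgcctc
Rgs13: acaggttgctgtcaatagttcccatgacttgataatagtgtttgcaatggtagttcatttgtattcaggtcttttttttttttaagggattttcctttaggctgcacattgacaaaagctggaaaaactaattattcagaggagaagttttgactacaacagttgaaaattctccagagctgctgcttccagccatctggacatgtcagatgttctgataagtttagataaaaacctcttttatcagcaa
Rgs12: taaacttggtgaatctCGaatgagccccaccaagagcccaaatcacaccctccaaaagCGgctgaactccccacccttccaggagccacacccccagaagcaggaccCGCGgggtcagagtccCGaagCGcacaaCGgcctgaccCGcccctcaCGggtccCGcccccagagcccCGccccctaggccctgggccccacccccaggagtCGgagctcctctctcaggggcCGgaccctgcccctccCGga

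The window of Rgs2 holds 30 CG pairs at a GC content of 72.4%, and 5.94% of 32851 RefSeq promoters have at least as many pairs. The window of Rgs13 holds 0 CG pairs at 36.0% GC, as do 7.87% of promoters. The window of Rgs12 holds 14 pairs at 68.4% GC, and 29.4% of promoters have at least as many. The median over all promoters is 6 pairs and 52.4% GC. The neighbours Rgs2 and Rgs13 therefore lie toward opposite ends of this range, and both had more reads in B2 than in B1a libraries. Methylation was not analysed here.

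Expressed per length as TPM, transcript abundance scaled to the same total in every library, the 9 genes together reached 336 and 309 TPM in B1a cells and 410 and 382 TPM in B2 cells. The sums were higher in both B2 libraries. Rgs14 and Rgs19 carried 92.2% and 78.1% of the summed TPM in B1a cells and 76.5% and 69.9% in B2 cells. The other 7 genes summed to 26.1 and 67.8 TPM in B1a cells against 96.5 and 115 TPM in B2 cells. More than 3 counts were found for 5 and 7 of the 9 genes in the B1a replicates and for 9 in each B2 replicate.

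**Figure D1:**
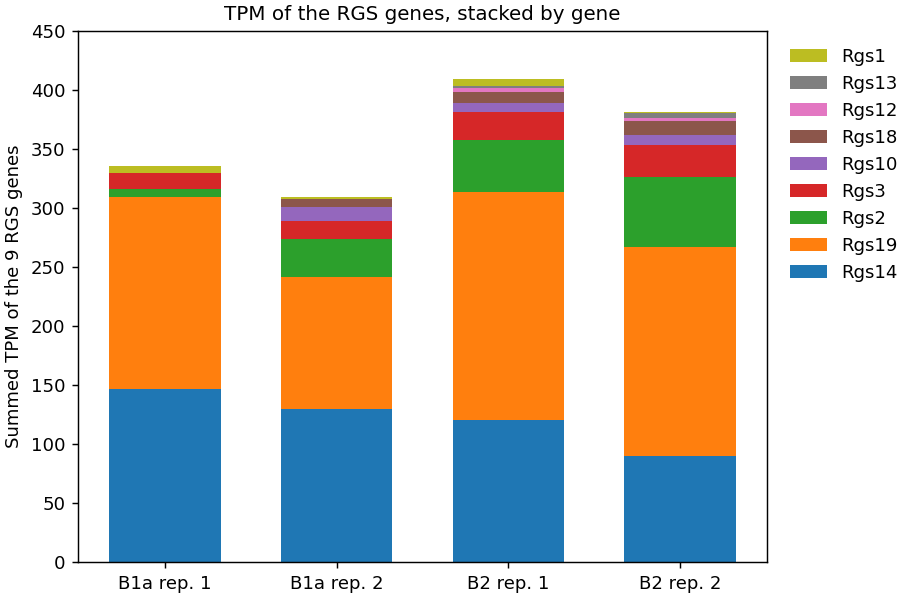
TPM of the 9 RGS genes stacked by gene, 1 bar per library, with the vertical axis from 0. Rgs14 (blue) and Rgs19 (orange) fill most of every bar, and the layers above them sum to 26.1 and 67.8 TPM in the B1a libraries and to 96.5 and 115 TPM in the B2 libraries.

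In B1a cells the order by mean TPM was Rgs14 (137.9), Rgs19 (137.5), Rgs2 (19.7), Rgs3 (14.7), Rgs10 (5.94), Rgs1 (3.61) and Rgs18 (3.12), with Rgs12 and Rgs13 at 0. Rgs14 and Rgs19 overlapped between replicates, as did Rgs2 with Rgs3, and all neighbours from Rgs10 downward overlapped too. Only the steps from Rgs19 to Rgs2 and from Rgs3 to Rgs10 exceeded the spread of the 2 libraries. In B2 cells the order was Rgs19 (184.9), Rgs14 (105.2), Rgs2 (52.3), Rgs3 (25.2), Rgs18 (10.3), Rgs10 (8.27), Rgs1 (3.56), Rgs13 (3.19) and Rgs12 (2.79). There the first 7 genes were separated from each other, and Rgs1, Rgs13 and Rgs12 overlapped. With 2 libraries per cell type these orders are descriptions.

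Expression was next compared between the cell types with edgeR's quasi-likelihood test over all genes. All 9 genes passed the filter on low counts, and 0 passed an adjusted p of 0.05, against 5.74% of the 12078 genes tested (4.24% higher in B1a and 1.5% higher in B2). DESeq2 called 1 of 8 members with an adjusted p, Rgs12, against 13.5% of genes, and limma-voom called 0, against 7.26%. An unadjusted p under 0.05 was found for 3 members, Rgs12, Rgs13 and Rgs14, against 20.9% of all genes. Both B2 libraries lay above both B1a libraries for 6 members, Rgs2, Rgs3, Rgs12, Rgs13, Rgs18 and Rgs19, against 29% of genes. Both B1a libraries lay above both B2 libraries for 1 member, Rgs14, against 25.3% of genes. The median log2 fold change (B1a minus B2) of the 9 genes was -0.57, and that of all tested genes was -0.03.

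**Figure D2:**
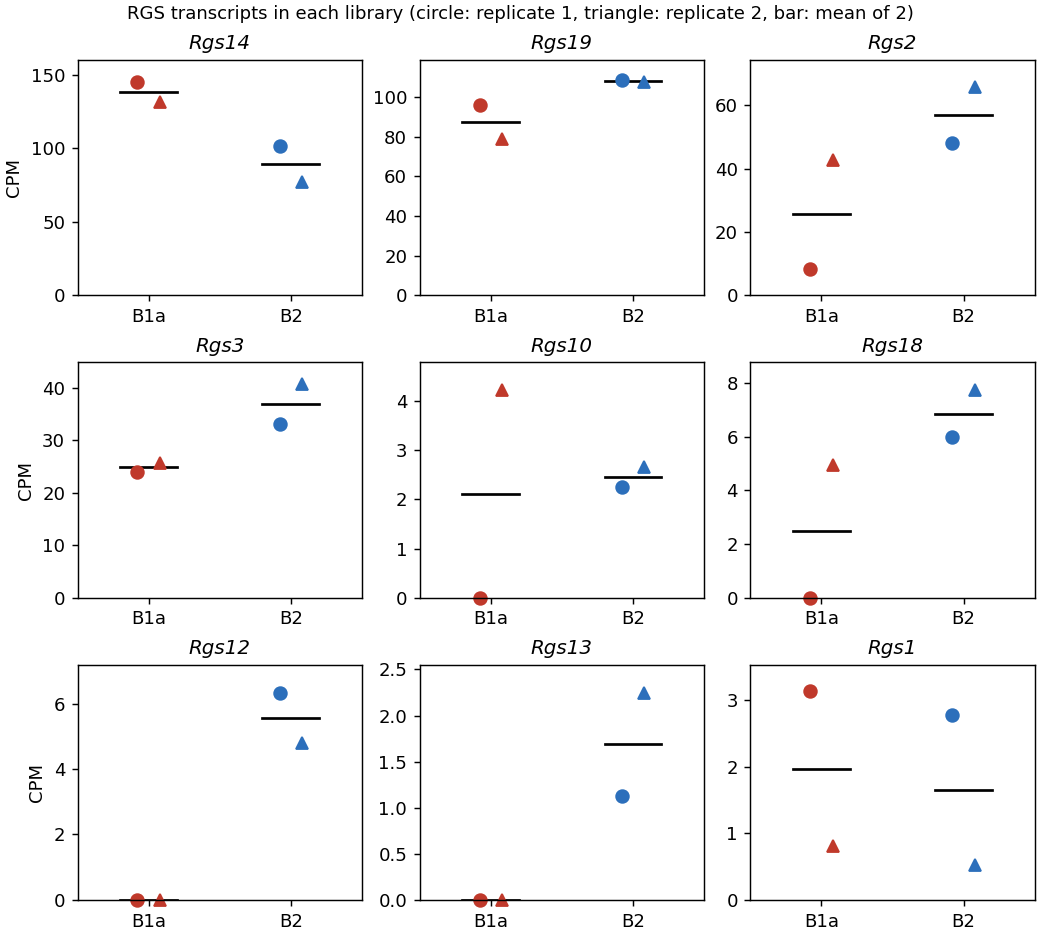
CPM of each RGS gene in the 4 libraries, with a separate vertical axis from 0 for each gene, circles for replicate 1, triangles for replicate 2 and a bar for the mean of 2. Rgs12 and Rgs13 sit at 0 in both B1a libraries, Rgs10 and Rgs18 sit at 0 in B1a replicate 1 alone, and Rgs14 is the gene whose B1a points both lie above its B2 points.

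Within the R12 group the 3 genes behaved differently. Rgs14, a scaffold that also binds Ras-family GTPases and inactive Gi alpha subunits, was found at 145 and 131 CPM in B1a cells and at 101 and 76.7 CPM in B2 cells. The B1a libraries were both higher, with means of 138 ± 9.34 and 89.0 ± 17.4 CPM (SD, n = 2 each), a 1.55-fold difference. The log2 fold change was 0.63 (SE 0.20, 95% interval 0.14 to 1.12), with an adjusted p of 0.151 by edgeR's test. Rgs14 passed with limma-voom and a weight for each cell type (adjusted p = 0.0490). Its log2 fold change in edgeR's fit was 0.56 without B1a replicate 1 and 0.70 without B1a replicate 2. It was 0.85 without B2 replicate 1 and 0.44 without B2 replicate 2.

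Rgs12, the largest member, which carries a PDZ domain and a Gi alpha-binding GoLoco motif beside its RGS domain, had 0 counts in both B1a libraries and 73 and 92 counts in the B2 libraries. These correspond to 6.33 and 4.81 CPM in B2 cells. The B2 mean of 5.57 CPM was 20.7-fold higher than in B1a cells with each B1a library set to the floor of 3 counts. That floor covers counting error only. Of genes with 40 to 60 counts in B1a replicate 2, 30.1% were at 0 in replicate 1, and with 80 to 120 counts 9.72% were. The adjusted p was 0.0874 in edgeR's test, 0.00121 with DESeq2 and 0.0463 in edgeR's test without the filter on low counts. Fits without either B1a replicate are not read for Rgs12, because the B1a library left has 0 counts. Of 2 transcripts counted, the reads in both B2 libraries were all assigned to the long one, with an abundance-weighted length of 5469 bases against 3422 bases for the other. An antisense gene, Gm43791, overlaps 467 of the 8487 exon bases of Rgs12, and whether strand was used in counting is not given in the sources used here.

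Rgs10, a small protein made of little more than an RGS domain, was found at 0 and 4.23 CPM in B1a cells and at 2.26 and 2.67 CPM in B2 cells. The B1a replicates enclosed both B2 values. The log2 fold change was -0.22 (95% interval -5.28 to 4.84), which leaves the direction undetermined, and it turned to 0.77 without B1a replicate 1. The 47 counts in B1a replicate 2 fall in the range in which 30.1% of genes were at 0 in replicate 1.

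Rgs19, the RZ member, known as a GTPase-activating protein for Gi alpha subunits on vesicles and the Golgi, was found at 96.1 and 78.7 CPM in B1a cells and at 108 and 107 CPM in B2 cells. The B2 libraries were both higher, with means of 87.4 ± 12.3 and 107.8 ± 0.761 CPM (SD, n = 2 each). The difference of 1.23-fold did not pass the test (log2 fold change -0.30, SE 0.19, adjusted p = 0.441, edgeR), and the 95% interval from -0.76 to 0.16 bounds it at less than 1 log2 unit in either direction. The length of its transcripts, weighted by abundance over 7 annotated transcripts, was 1431 and 1660 bases in B1a cells and 1599 and 1694 bases in B2 cells. The lengths overlapped between the cell types, and B1a replicate 1 had the shortest value.

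Among the R4 genes, Rgs2 and Rgs3 were the most abundant. Rgs2, which acts mainly on Gq alpha subunits, was found at 8.25 and 42.8 CPM in B1a cells and at 48.2 and 65.9 CPM in B2 cells. The B2 libraries were both higher, but the B1a replicates were further apart than the groups. The log2 fold change was -1.16 (SE 0.72, 95% interval -2.92 to 0.60) with an adjusted p of 0.439 by edgeR's test. It was -2.79 without B1a replicate 2 and -0.42 without B1a replicate 1, so the size rests on which B1a library is used. With a replicate block, a term for the replicate number, it was -1.56 (adjusted p = 0.0030).

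Rgs3, which acts on both Gi and Gq alpha subunits, was found at 23.8 and 25.7 CPM in B1a cells and at 33.1 and 40.6 CPM in B2 cells. The groups did not overlap, and the means of 24.8 ± 1.33 and 36.9 ± 5.29 CPM (SD, n = 2 each) differed by 1.49-fold. This did not pass the test (log2 fold change -0.57, SE 0.31, 95% interval -1.34 to 0.19, adjusted p = 0.377, edgeR). It did not pass in any alternative that kept all 4 libraries. The log2 fold change was -0.52 without B1a replicate 1 and -0.63 without B1a replicate 2. Its weighted transcript length, over 3 transcripts, was 4031 and 3822 bases in B1a cells and 3863 and 4157 bases in B2 cells, with overlap.

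Rgs13, known from germinal centre B cells and mast cells, had 0 counts in both B1a libraries and 13 and 43 counts in the B2 libraries. These correspond to 1.13 and 2.25 CPM in B2 cells. The B2 mean of 1.69 CPM was 6.27-fold higher than in B1a cells with the floor of 3 counts set for each B1a library. That floor covers counting error only, not the zeros that many genes showed in a single B1a library. The adjusted p was 0.180 in edgeR's test, and Rgs13 did not pass in any alternative that kept all 4 libraries. The summed level of 7 germinal centre markers was also higher in B2 cells (164 and 185 CPM against 61.9 and 63.1 CPM), with more than 3 counts for 6 and 7 of the 7 against 3 and 5. Of these, Fas had 0 counts in both B1a libraries and 37 and 55 in the B2 libraries. Mast cell markers went the other way, at 46.1 and 16.5 CPM in B1a cells and at 1.48 and 0.941 CPM in B2 cells. The part of these cells in the Rgs13 counts was not tested, and fewer cells with a transcript cannot be told apart from less of it per cell in bulk samples.

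Rgs18, best known from platelets and megakaryocytes, was found at 0 and 4.95 CPM in B1a cells and at 5.99 and 7.74 CPM in B2 cells. The B2 libraries were higher than both B1a libraries, and B1a replicate 2 came close to them. The log2 fold change was -1.47 (SE 1.91, 95% interval -6.16 to 3.22) with an adjusted p of 0.749 by edgeR's test. It did not pass in any alternative that kept all 4 libraries. Without B1a replicate 2 the B1a library left has 0 counts. The 55 counts in B1a replicate 2 again fall in the range in which 30.1% of genes were at 0 in replicate 1. The 8 platelet markers summed to 18.56 and 17.18 CPM in B1a cells and to 22.6 and 14.1 CPM in B2 cells, which overlapped. More than 3 counts were found for 2 and 3 of the 8 in B1a cells and for 5 and 3 in B2 cells. Gp1ba carried most of the sum (120, 142, 199 and 237 counts in B1a replicates 1 and 2 and B2 replicates 1 and 2). Itga2b, like Rgs18, was at 0 in B1a replicate 1 and present in the others (40, 34 and 15 counts). Gp9, in the same order of libraries, went the other way, at 87, 9, 12 and 0 counts. Treml1 was at 0, 0, 3 and 17 counts, Ppbp at 0, 0, 6 and 1 counts, and Pf4 at 0, 0, 4 and 0 counts. Gp1bb was at 0, 0, 1.92 and 0 counts, and Gp6 at 0 in all 4 libraries. The part of platelets in the Rgs18 counts was not tested.

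Rgs1, which restrains chemokine-driven migration of B cells, was found at 3.14 and 0.809 CPM in B1a cells and at 2.78 and 0.523 CPM in B2 cells. The replicates of each cell type differed by more than the cell types did. The log2 fold change was 0.26 (SE 1.58, 95% interval -3.61 to 4.14, adjusted p = 0.952, edgeR). The direction turned when B1a replicate 1 (-1.0) or B2 replicate 2 (-0.50) was left out, so no difference was detectable with this spread between replicates.

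**Figure D3:**
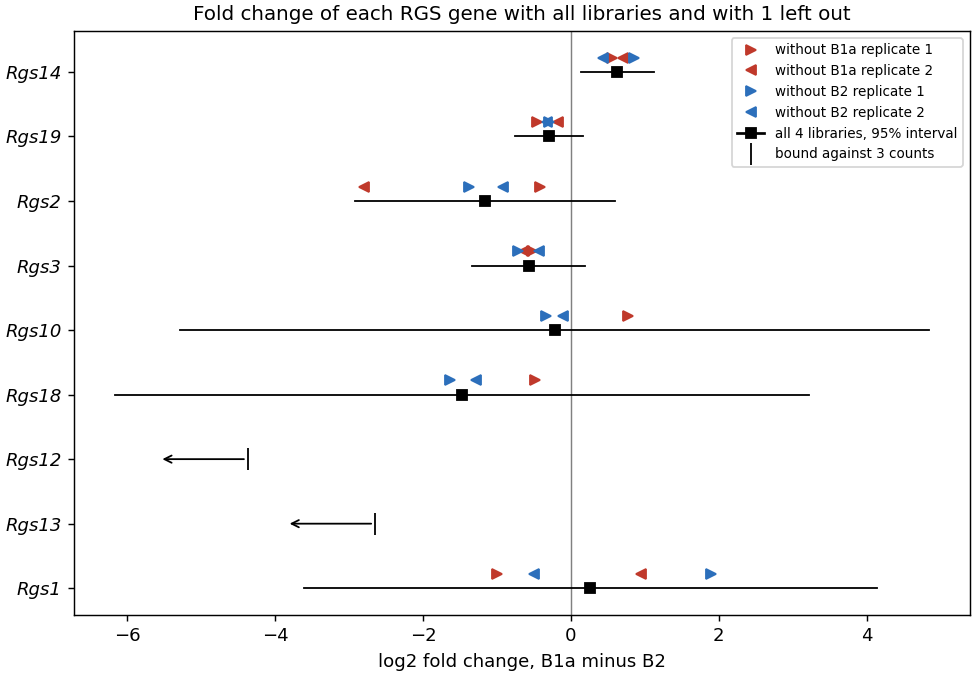
Log2 fold change (B1a minus B2) of each RGS gene with its 95% interval over all 4 libraries (black) and with each library left out in turn (coloured triangles), and for Rgs12 and Rgs13 an arrow from the bound set by 3 counts per B1a library. Rgs14, Rgs19 and Rgs3 stay close to their fold change, Rgs2 moves between -2.79 and -0.42, and for Rgs10 and Rgs18 the value without B1a replicate 2 is not drawn because the library left has 0 counts.

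When either B1a replicate was left out, more of the 9 genes passed the test, and so did more of all tested genes. The larger number of members is therefore not read as a result about them. In each fit with a library left out, the lone library of a cell type is assumed to vary like the pair of the other cell type. For single genes in these fits only log2 fold changes are given.

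The remaining genes of the pathway were examined as 7 lists of 135 genes. Of 97 tested, 9 passed with more reads in B1a and 5 with more in B2, 14.4% in all against 5.74% of all tested genes. Of 13 other RGS genes, 3 were tested and 0 passed, with 1 at an unadjusted p under 0.05 and 0 passing with DESeq2 or limma-voom. Rgs9, mostly known from photoreceptors and neurons, had 0 counts in both B1a libraries and 11.8 and 24 counts in the B2 libraries (adjusted p = 0.210, edgeR). Its B2 mean of 1.15 CPM was 4.26-fold higher than in B1a cells at the same floor, which covers counting error only. Rgs11 was at 7.80 and 1.98 CPM in B1a cells and at 1.04 and 1.31 CPM in B2 cells, both B1a libraries above both B2 libraries (log2 fold change 2.05, SE 1.34, adjusted p = 0.471, edgeR). Rgs20, the other RZ member tested, was at 8.52 and 4.95 CPM in B1a cells and at 9.20 and 9.51 CPM in B2 cells (adjusted p = 0.805, edgeR).

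RGS proteins act on G alpha subunits, and of 9 tested G alpha genes 0 passed edgeR's test. An unadjusted p under 0.05 was found for 1 of them, against 20.9% of all tested genes, and their median log2 fold change was 0.12. Gnai2, the main Gi alpha subunit of lymphocytes, was at 537 and 527 CPM in B1a cells and at 437 and 399 CPM in B2 cells (adjusted p = 0.159, edgeR), and it passed with DESeq2. Gnaq (log2 fold change 0.12) and Gna13 (-0.36) did not pass in edgeR's test. Of 12 tested beta and gamma subunits, 1 passed, Gnb3, with 343 and 70 counts in B1a cells against 1 and 0 in B2 cells (adjusted p = 0.0370, edgeR), a call that was lost with limma-voom. Gnai2, Gnaq, Gna13, Grk5, Cxcr4, Cxcr5 and S1pr1 are described as genes singled out after their values were seen.

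Receptors moved in both directions. Of 26 tested homing and Gi-coupled receptors, 4 passed with a higher level in B1a (4.24% of all tested genes did) and 4 with a higher level in B2 (1.5% of all tested genes). In B1a cells Ccr1, a receptor for inflammatory chemokines, was 11.8-fold higher (85.1 and 86.7 CPM against 4.94 and 9.57 CPM, adjusted p = 0.00716, edgeR). Adora2a, an adenosine receptor coupled to Gs, was 10.3-fold higher (159 and 102 CPM against 11.02 and 14.32 CPM, adjusted p = 0.00462, edgeR). Cxcr5, which guides B cells toward CXCL13 in follicles and body cavities, and S1pr1, the egress receptor, were also higher in B1a, by 1.34 and 0.96 on the log2 scale (adjusted p = 0.00428 and 0.00904, edgeR).

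In B2 cells Ccr6, the receptor for CCL20, was 10.4-fold higher (109 and 106 CPM against 4.21 and 16.5 CPM, adjusted p = 0.0356, edgeR). Gpr174, a receptor for lysophosphatidylserine, Cnr2, a cannabinoid receptor coupled to Gi, and Cxcr4, the receptor for CXCL12, were also higher, with log2 fold changes of -1.98, -1.90 and -1.67 (adjusted p = 0.00462, 0.00440 and 0.0254, edgeR). The kinases and arrestins that switch off receptors showed 0 calls among 8 tested, with 3 at an unadjusted p under 0.05. Of these, Grk5 (25.3 and 28.7 CPM against 6.94 and 2.46 CPM) passed with DESeq2 and limma-voom but not with edgeR (adjusted p = 0.0948). Among 11 other G protein regulators tested, 0 passed in edgeR's test and 0 had an unadjusted p under 0.05, against 20.9% of all tested genes.

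Of 28 tested effectors, 4 passed with a higher level in B1a and 1 in B2, against 4.24% and 1.5% of all tested genes. Rap1gap, which inactivates the adhesion GTPase Rap1, was 37.3-fold higher in B1a cells (75.8 and 68.0 CPM against 2.60 and 1.26 CPM, adjusted p = 0.00388, edgeR). Prkar2b, a regulatory subunit of protein kinase A, was 20.4-fold higher (24.3 and 52.3 CPM against 2.34 and 1.41 CPM, adjusted p = 0.0163, edgeR), a call that was lost with limma-voom. Arhgef12, a guanine nucleotide exchange factor that itself carries an RGS-like domain and is driven by G12/13 proteins, was 4.49-fold higher, and Rasa3, a GTPase-activating protein for Ras and Rap, was 1.62-fold higher (adjusted p = 0.00307 and 0.0295, edgeR). Pik3cg, the PI3-kinase activated by beta-gamma subunits, was 2.26-fold higher in B2 cells (adjusted p = 0.0101, edgeR).

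**Figure D4:**
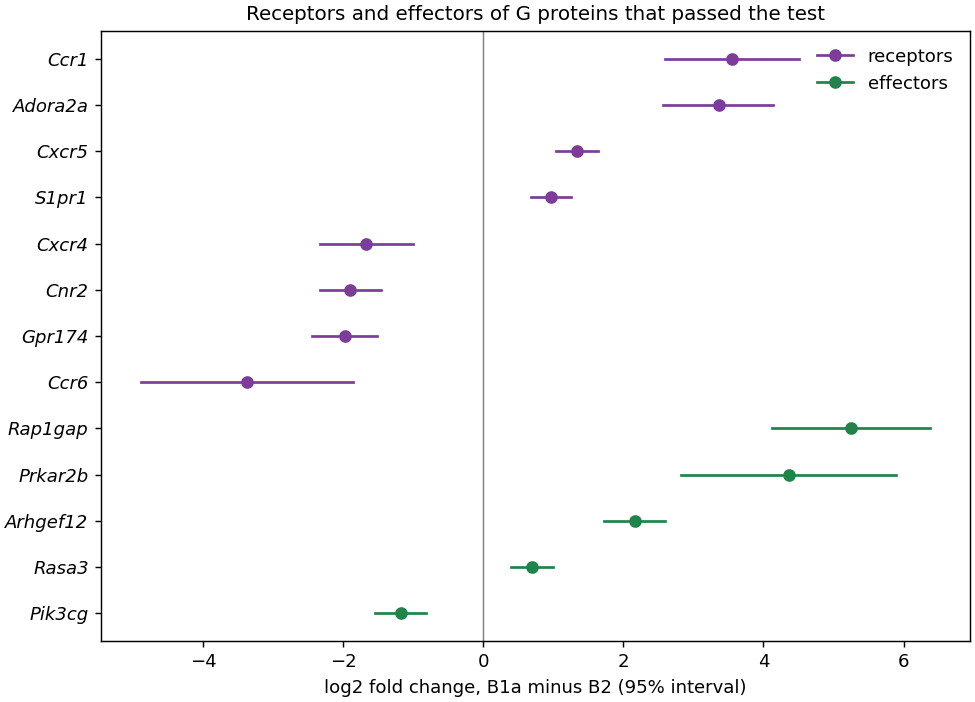
Log2 fold change (B1a minus B2, horizontal axis) with 95% interval for the 8 receptors (purple) and 5 effectors (green) that passed edgeR's test. Points right of 0 are higher in B1a cells, and all points run from -3.37 for Ccr6 to 5.25 for Rap1gap. These genes are drawn because they passed. Of the 9 RGS genes 0 passed, against 5.74% of all tested genes.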

How the data were processed

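RNA was sequenced from 4 libraries of sorted wild-type cells, in 2 groups of 2 given by the sample titles. The authors used the mm10 genome, RefSeq annotation and RSEM (version 1.2.29 in the submitters' processing notes). They deposited for each of 21970 gene entries an unnormalized expected count, with ambiguous reads split between entries. The authors also deposited TPM, which have the same sum in each library, an abundance-weighted transcript length, and a signal value, the posterior standard deviation of the count, of at most 1.96 for the 9 RGS genes chosen. The labels name a ribosomal RNA depletion kit and the methods a stranded kit, while the paper's discussion states that polyadenylated RNA was enriched. The sources therefore differ on how RNA was selected, and use of strand in counting is not given in those used here.

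Counts of the same symbol were added and rounded, low genes were removed with filterByExpr, TMM scaling was applied (factors 0.964, 0.963, 1.05 and 1.03) and differences were tested with edgeR 4.0.16 (quasi-likelihood, R 4.3.3) without a replicate block. P-values received Benjamini-Hochberg adjustment over 12078 genes, with a threshold of 0.05. CPM use the TMM-scaled library sizes. Standard errors derive from the F statistic. Fold changes against libraries at 0 are bounds at 3 counts per library, which allow for counting error only. EBSeq, named by the study, was not run. Alternatives were DESeq2 1.42.0, limma-voom (limma 3.58.1) with and without a weight for each cell type, upper quartile scaling, other filters, limma on log2(TPM + 1) and log2(TPM + 0.1), unsummed entries, a replicate block and each library left out. The tests were tested on simulated data. Positions come from RefSeq on GRCm38 and overlaps from GENCODE.

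The RGS genes, the lists and the alternatives were chosen with earlier results of these data known. Named pathway genes are the called genes of each list (at most 5 with the largest change) and other RGS genes above 3 counts in both libraries of a group; exceptions are stated. Genes with the nearest pattern were to be named for called RGS genes, and there were none. By the methods the replicates come from separate mice, and same-numbered B1a and B2 replicates were not described as pairs.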

Additional observations from a re-analysis of the deposited data

How the results depend on the processing

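The count of RGS genes that passed was 0 in the fit as reported and 1 each with DESeq2 (Rgs12), limma-voom with cell-type weights (Rgs14), no filter beyond 1 count (Rgs12) and a replicate block (Rgs2). It ranged from 0 to 7 when a library was left out. The highest count came without B1a replicate 2, the fit in which the count over all genes was also highest. It is therefore not read as a result about the RGS genes. With B1a replicate 1 left out, the fold change turned for Rgs1 (-1.0) and Rgs10 (0.77), and it turned for Rgs1 without B2 replicate 2 (-0.50). Over the libraries left out in turn, the fitted log2 value ranged from -1.0 to 1.9 for Rgs1 and from -8.11, where the B1a library left has 0 counts and the value is no bound, to 0.77 for Rgs10. Over all genes the count of 693 became 1562 with DESeq2 (1011 higher in B1a and 551 in B2), 1415 with the weights, 1141 with no filter beyond 1 count, 359 on log2(TPM + 0.1) (196 and 163), 1481 with the replicate block, and between 539 and 6143 when a library was left out. The genes tested numbered 11609 with DESeq2, 14730 with no filter beyond 1 count, and 12078 in the reported fit. They also numbered 12078 with the weights and with the replicate block. Each alternative with all 4 libraries that called 1 RGS gene thus also called more genes over all than the reported fit. In the reported fit 512 were higher in B1a and 181 in B2, and on log2(TPM + 1) the split was 266 and 233. The numbers do not pair the samples (correlation of deviations -0.035), so the replicate block is a shared number only. For the lists, DESeq2 gave 1 G alpha subunit, 1 kinase or arrestin and 12 effectors, limma-voom gave 0 beta and gamma subunits and 1 kinase or arrestin, and the weights gave 2 kinases or arrestins and 11 effectors. The lists were not refitted with a library left out. The cause of these changes was not tested. Counts of 3 or fewer could not be told from none at these totals.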
